A study of Homo sapiens with 6 samples.

Results

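Death receptors are cell-surface proteins of the tumour necrosis factor receptor family through which a neighbouring cell or a secreted ligand can start apoptosis. The 10 genes described here encode the receptors for TRAIL (TNFRSF10A, TNFRSF10B, TNFRSF10C and TNFRSF10D), TRAIL itself (TNFSF10), the receptor FAS, the adaptor FADD, the initiator caspases CASP8 and CASP10 and their regulator CFLAR. They were taken by symbol from the 58825 genes of the deposited table, where each of the 10 symbols had 1 row. The RNA came from PANC-1, an established human pancreatic ductal carcinoma line. In 3 libraries the cells had been exposed for 48 h to 8 µM of a compound given only as CMR, and 3 libraries were labelled control. What the control cells received is not stated in the labels, nor whether the libraries of a group were grown as separate cultures, so a p-value here weighs only how far libraries of a group differ, and that spread may be technical.

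When a ligand trimer binds TNFRSF10A (death receptor 4), TNFRSF10B (death receptor 5) or FAS, the receptor's intracellular death domain recruits FADD. FADD in turn gathers procaspase-8 and procaspase-10 through their death effector domains, and the caspases cut and activate one another. CFLAR (c-FLIP) resembles caspase-8 but lacks its catalytic activity and can block or tune this step, while TNFRSF10C and TNFRSF10D bind TRAIL without a working death domain and are known as decoy receptors. In cells under endoplasmic reticulum stress TNFRSF10B is a known target of the transcription factor CHOP.

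Totals ran from 51147268 to 70129221 counts per library, with the CMR libraries the deeper ones. Log expression correlated across genes, which are not independent replicates, with r from 0.966 to 0.971 within a group and from 0.914 to 0.939 between groups. CMR replicate 3 had the lowest correlation with each of the control libraries (0.914, 0.916 and 0.920). All 8 markers of pancreatic duct epithelium and all 4 mesenchymal genes known of PANC-1 were expressed. The summed level of the duct markers spanned 703 to 1299 CPM (counts scaled to library size and composition) with CMR and 2825 to 3222 in control. Of the 8, 5 were called lower by the edgeR test described below, as were 18.1% of all tested genes. The mesenchymal genes summed to between 1274 and 1680 with CMR and between 3796 and 3850 in control, and 3 of the 4 were called lower. The 3 fibroblast genes, led by COL1A1, summed to between 10.2 and 19.9 with CMR against 68.6 to 83.7 in control. Whether these shifts play a part in the values below was not tested. Markers of acinar (5 genes), islet (3), adipocyte (4), leukocyte (4) and endothelial (3) cells each summed to at most 0.530 CPM in every library, and INS, GCG, SST, CPA1, AMY2A, PNLIP, LEP and CD3E had no count in any.

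The promoters of 3 members are shown because these genes sit at different points of the expression range in these cells: FADD among the most abundant members, FAS low and TNFSF10 barely detected. Each window is 300 bases of RefSeq sequence (build GRCh38.p14), from 250 bases before to 50 after a transcription start, read 5′ to 3′ on the gene's strand. Capitals mark every match, on either strand, to the GC box GGGCGG, the CCAAT box, the TATA box written as TATAAA, or TGATGNAA, a core of the C/EBP-ATF element. No match overlapped another. The FADD window is chr11:70203046-70203345 on the plus strand, the FAS window chr10:88990548-88990847 on the plus strand, and the TNFSF10 window chr3:172523381-172523680 on the minus strand.
FADD: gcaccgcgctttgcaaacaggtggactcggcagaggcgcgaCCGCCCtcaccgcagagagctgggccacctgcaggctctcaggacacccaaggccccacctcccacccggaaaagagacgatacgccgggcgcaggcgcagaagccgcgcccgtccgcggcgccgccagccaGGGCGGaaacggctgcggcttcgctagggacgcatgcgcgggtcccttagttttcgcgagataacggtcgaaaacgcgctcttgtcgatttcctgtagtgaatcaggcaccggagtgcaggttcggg
FAS: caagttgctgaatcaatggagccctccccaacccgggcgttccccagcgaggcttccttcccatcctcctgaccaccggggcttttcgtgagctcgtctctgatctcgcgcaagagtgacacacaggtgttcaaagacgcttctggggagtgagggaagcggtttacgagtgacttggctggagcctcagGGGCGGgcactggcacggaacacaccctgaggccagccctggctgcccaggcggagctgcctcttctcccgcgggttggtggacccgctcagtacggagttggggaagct
TNFSF10: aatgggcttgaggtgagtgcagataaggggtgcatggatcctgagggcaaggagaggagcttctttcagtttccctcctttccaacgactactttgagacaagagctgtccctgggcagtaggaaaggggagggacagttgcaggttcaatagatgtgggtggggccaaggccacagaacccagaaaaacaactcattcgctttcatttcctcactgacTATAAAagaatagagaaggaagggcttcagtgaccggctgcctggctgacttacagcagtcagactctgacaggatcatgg

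The FADD window held 36 CpG dinucleotides and 2 GC boxes, the FAS window 18 and 1, and the TNFSF10 window 3 and no GC box but 1 TATAAA. The FAS window shown is 1 of 3, which held 14 to 22 CpG and 1 or 2 GC boxes. Over the 35116 such windows of all genes the median was 14 CpG (quartiles 4 and 28). A GC box was in 45.0% of windows, CCAAT in 34.6%, TATAAA in 11.5% and TGATGNAA in 3.62%. RefSeq windows were found for 5 of the 10 members, the others being CASP8 and CFLAR. These matches describe letters in a window, and which start the PANC-1 cells use was not measured.

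Per unit length, TNFRSF10B became the most abundant mRNA of the group with CMR. Levels between genes are compared here as FPKM (fragments per kilobase of gene and per sequencing depth). In control the order was FADD (19.2 ± 1.72 FPKM, SD, n = 3), CASP8 (7.12 ± 0.203), TNFRSF10B (5.31 ± 0.447), TNFRSF10D (4.03 ± 0.536), TNFRSF10A (3.77 ± 0.182), FAS (1.02 ± 0.0972) and CFLAR (0.907 ± 0.0714). With CMR it was TNFRSF10B (23.1 ± 1.46), FADD (16.1 ± 1.07), CASP8 (7.30 ± 1.27), TNFRSF10A (5.44 ± 0.117), TNFRSF10D (1.40 ± 0.259), CFLAR (0.670 ± 0.181) and FAS (0.549 ± 0.244). TNFSF10, CASP10 and TNFRSF10C closed both orders with means below those of all other members. Among neighbours in these orders, the libraries overlapped for TNFRSF10D and TNFRSF10A in control, for FAS and CFLAR in both groups, for TNFSF10 and CASP10 with CMR, and for CASP10 and TNFRSF10C in both. The remaining neighbours were separated in every library on the FPKM scale. Counts and FPKM together imply a divisor of 8.64 kb for CASP8, whose longest coding transcript is 2.93 kb. For FADD these lengths are 2.19 and 1.84 kb, so the gap between FADD and CASP8, and with CMR their order, depends on the length used.

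**Figure D1:**
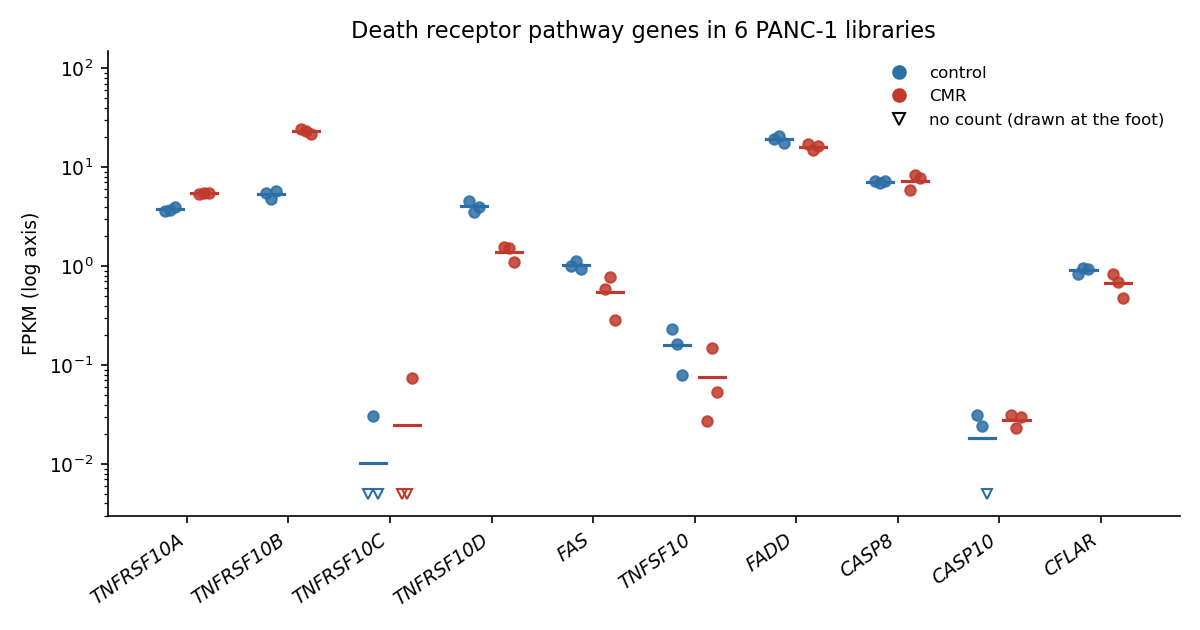
FPKM (log axis) of the 10 genes in the 3 control (blue) and 3 CMR (red) libraries; each point is a library, the line is the group mean, and open triangles at the foot are libraries with no count. TNFRSF10B moves from 5.31 to 23.1 and TNFRSF10D from 4.03 to 1.40 FPKM, with no overlap between groups.

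Which of these genes differed between CMR and control was tested with edgeR's quasi-likelihood test on the deposited counts, with Benjamini-Hochberg adjustment over all 19200 genes tested and a call at an adjusted p under 0.05. TNFRSF10B and TNFRSF10A, the signalling TRAIL receptors, rose, and the decoy receptor TNFRSF10D fell. The other 6 tested members were not called, and TNFRSF10C had too few counts to be tested. The background was high: 38.6% of all tested genes were called, 20.5% higher and 18.1% lower with CMR. Of the calls 53.1% were higher, and 42.9% with upper-quartile scaling. A share of 3 called members of 9 is near that background, so the count is no result about the group. The median log2 fold change was -0.18 over the 9 members and -0.01 over all tested genes.

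TNFRSF10B stood at 147, 143 and 134 CPM in CMR replicates 1 to 3, and at 31.6, 28.0 and 33.1 in control. All 3 CMR libraries lay far above all control libraries, and the spread within each group was small beside the gap. The fitted change was 4.57-fold (log2 fold change 2.19 ± 0.10 SE, 95% interval 1.95 to 2.43, edgeR adjusted p = 4.3e-05). Of the 19200 genes tested, 588 (3.06%) had a rise at least as large. Because bulk RNA was measured, more mRNA per cell and a larger share of cells that express the gene cannot be told apart here, and the same holds for falls.

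TNFRSF10A, the other receptor with a death domain, stood at 18.8, 19.8 and 20.3 CPM with CMR and at 12.5, 12.6 and 13.6 in control. The groups did not overlap, and the rise was modest (1.52-fold, log2 fold change 0.61 ± 0.12 SE, edgeR adjusted p = 0.00591). An antisense gene, AC100861, overlaps the start of TNFRSF10A on the opposite strand, and its mean count was 26.5% of that of TNFRSF10A. Whether counting used strand is not stated in the sources used here. The antisense gene itself spanned 4.09 to 5.19 CPM with CMR and 3.65 to 5.58 in control, and the groups overlapped. In FPKM the ratio of TNFRSF10B to TNFRSF10A was 1.41 ± 0.0968 in control and 4.25 ± 0.358 with CMR (SD, n = 3), and with counts not scaled to length it was 2.39 ± 0.166 and 7.20 ± 0.608. On both scales the ratio was higher in every CMR library than in any control library.

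TNFRSF10D, a decoy receptor with a truncated death domain, stood at 6.63, 6.66 and 4.84 CPM with CMR and at 18.8, 14.4 and 16.4 in control. Every CMR library was below every control library. The fall was 2.73-fold (log2 fold change -1.45 ± 0.19 SE, edgeR adjusted p = 0.00115). TNFRSF10C, the decoy held in the membrane by a lipid anchor, had 12 counts in CMR replicate 3, 4 in control replicate 2 and none in the other 4 libraries. A count of 0 allows a level of up to 3 counts, which is 0.0587 CPM in the smallest library and 0.0428 in the largest, before composition scaling and for counting error only. In a fit of all genes with any count TNFRSF10C was not called (edgeR adjusted p = 0.755), and with so few counts only a large change could have been.

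The 4 TRAIL receptor genes are paralogues that lie side by side on chromosome 8, and how reads that match more than one of them were counted is not given in the sources used here. Their summed FPKM was shared unequally. TNFRSF10B held 39.8, 40.0 and 41.7% of it in the control libraries and 78.1, 76.8 and 76.2% with CMR. TNFRSF10D went the other way, from 33.5, 29.1 and 29.2% to 4.99, 5.08 and 3.89%, and TNFRSF10A from 28.8 ± 2.02 to 18.2 ± 1.33% (SD, n = 3). TNFRSF10A thus gained in level while its share became smaller. These shares are given without a test. With counts not scaled to length the mean share of TNFRSF10A was 21.5% in control and 11.8% with CMR, and on that scale too the groups did not overlap for TNFRSF10A, TNFRSF10B or TNFRSF10D.

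**Figure D2:**
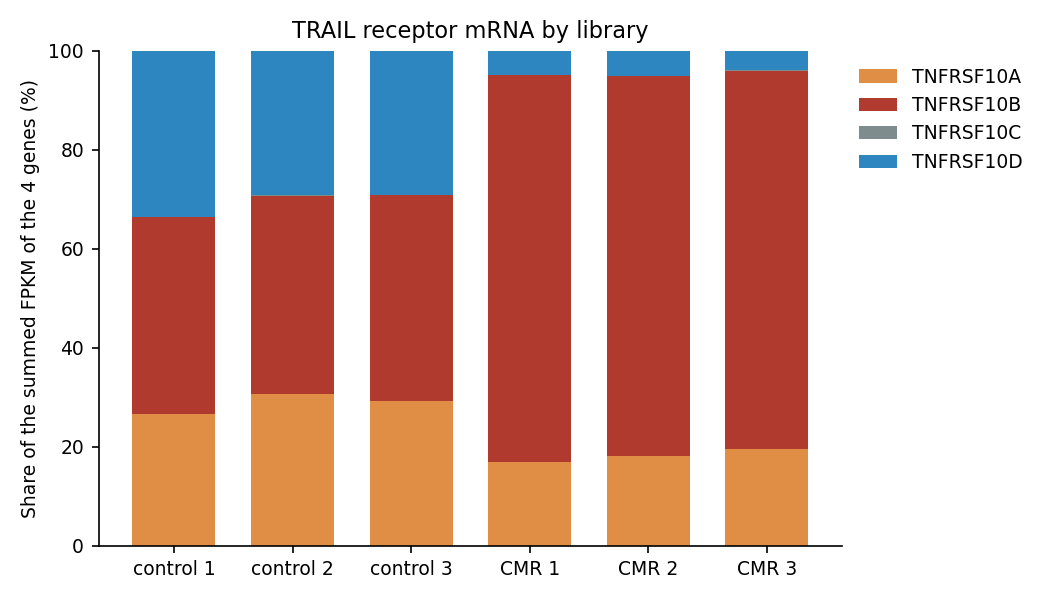
Stacked bars of each TRAIL receptor gene's share (%) of the 4 genes' summed FPKM, 1 bar per library, control at left and CMR at right. TNFRSF10B holds about 40% of the sum in control (mean 40.5%) and a mean of 77.0% with CMR, while TNFRSF10D goes from 30.6 to 4.65%; TNFRSF10C is too small to see.

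TNFSF10, the ligand TRAIL, was near the limit of detection, with 8, 43 and 16 counts with CMR and 49, 36 and 21 in control. In normalised units these were 0.121, 0.632 and 0.244 CPM against 0.936, 0.679 and 0.321, and the groups overlapped. The fitted log2 fold change of -0.95 ± 0.70 SE was not called (95% interval -2.60 to 0.71, edgeR adjusted p = 0.336). That interval spans both a large fall and a moderate rise. The ligand of FAS, FASLG, had no count in any of the 6 libraries.

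FAS, the receptor for FASLG, stood at 3.98, 5.35 and 2.03 CPM with CMR and at 6.57, 7.34 and 6.11 in control. All 3 CMR libraries were below the control libraries, with CMR replicate 3 lowest. The log2 fold change of -0.82 ± 0.34 SE nevertheless missed the threshold (95% interval -1.61 to -0.02, edgeR adjusted p = 0.0987). It passed by DESeq2 (adjusted p = 0.0450) and without CMR replicate 2 (log2 fold change -1.15, edgeR adjusted p = 0.0438), so the call rests on the test and on that library. FAS and TNFRSF10B feed the same adaptor, and their FPKM ratio was 0.195 ± 0.0357 in control and 0.0236 ± 0.00996 with CMR (SD, n = 3). Per kb of the longest coding transcript the ratio was 0.353 ± 0.0648 and 0.0430 ± 0.0181, so its size depends on the length used. On both scales it was lower in every CMR library than in any control library. Among the 9 tested members, FAS, TNFRSF10A, TNFRSF10B and TNFRSF10D were those whose groups did not overlap, a pattern that 53.9% of all tested genes showed.

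FADD, the adaptor, stood at 37.5, 33.7 and 37.5 CPM with CMR and at 41.1, 44.5 and 37.3 in control. The groups overlapped. Its log2 fold change was -0.18 ± 0.11 SE (95% interval -0.44 to 0.08, edgeR adjusted p = 0.252).

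CASP8, the main initiator caspase of the pathway, varied more between CMR libraries than between control libraries: 50.9, 73.3 and 70.5 CPM against 61.2, 57.9 and 60.7. CMR replicate 1 lay below all controls and the other CMR libraries above them. The log2 fold change was 0.12 ± 0.15 SE (95% interval -0.23 to 0.46, edgeR adjusted p = 0.579). Without CMR replicate 1 it was 0.26 and called (edgeR adjusted p = 0.0479), and with upper-quartile scaling of all 6 libraries it was -0.02, so neither its call nor its sign was stable. CASP10, the paralogue of CASP8, had 19, 17 and 19 counts with CMR and 16, 12 and 0 in control. At that depth its interval was wide (log2 fold change 0.65 ± 1.08 SE, 95% interval -1.89 to 3.19, edgeR adjusted p = 0.674).

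CFLAR, the catalytically inactive relative of CASP8, stood at 22.9, 19.2 and 13.6 CPM with CMR and at 21.6, 25.1 and 24.7 in control. CMR replicate 1 fell within the control range and CMR replicate 3 was far below it. The difference was not called (log2 fold change -0.36 ± 0.20 SE, 95% interval -0.83 to 0.10, edgeR adjusted p = 0.196). The ratio of CFLAR to CASP8 FPKM was 0.144, 0.0834 and 0.0616 with CMR and 0.113, 0.139 and 0.131 in control, and the groups overlapped. The size of that ratio depends on the gene model. The merged exons of CFLAR in GENCODE 29 add up to 22.5 kb and its longest coding transcript to 14.7 kb, while its counts and FPKM together imply a divisor of 27.0 kb. For CASP8 these lengths are 7.24, 2.93 and 8.64 kb. The implied divisor also depends on the depth used for FPKM, and it exceeded the merged exons in every member. Per kb of the longest coding transcript the ratio was 0.0601 ± 0.0265 with CMR and 0.0795 ± 0.00806 in control (SD, n = 3), and with counts alone 0.301 ± 0.133 and 0.398 ± 0.0404. The groups overlapped on each of these scales. GENCODE 29 lists 18 coding transcripts of CFLAR and 15 of CASP8, and gene-level counts do not separate the long and short c-FLIP forms.

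**Figure D3:**
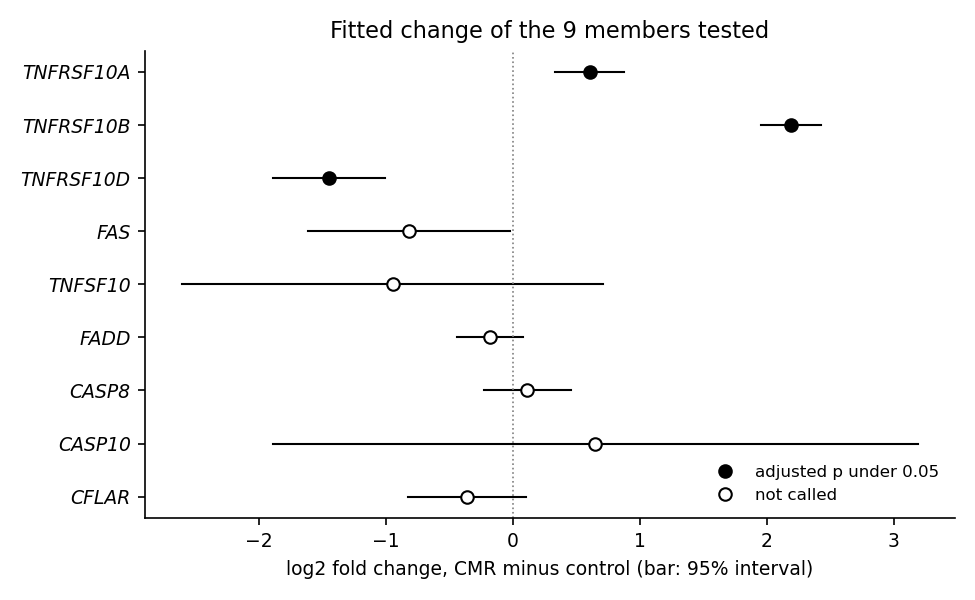
Fitted log2 fold change (CMR minus control) of the 9 tested members with 95% intervals from edgeR; filled points have an adjusted p under 0.05. TNFRSF10B (2.19), TNFRSF10A (0.61) and TNFRSF10D (-1.45) are filled, and the intervals of TNFSF10 and CASP10 are the widest.

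**Figure D4:**
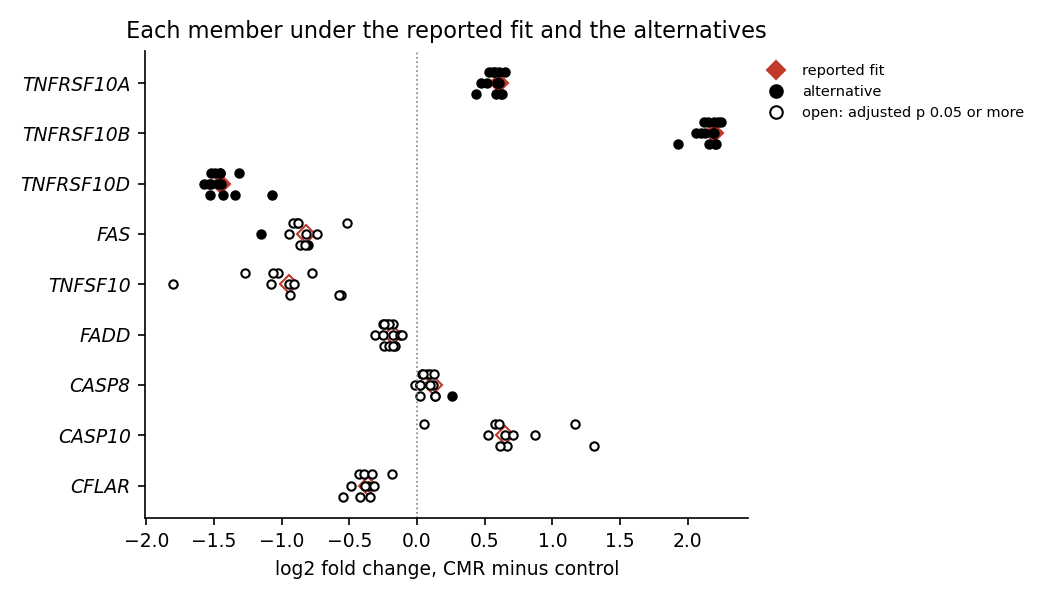
Log2 fold change of the same 9 genes (x axis) in the reported fit (diamond) and under each alternative (circles); open symbols have an adjusted p of 0.05 or more. TNFRSF10A, TNFRSF10B and TNFRSF10D are filled in every fit shown, FAS in 2 alternatives and CASP8 in 1.

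The plot of alternatives holds the 14 other fits of each gene, or 11 for genes with a mean under 1 FPKM. TNFRSF10B ranged from 1.93 to 2.24, TNFRSF10A from 0.43 to 0.65 and TNFRSF10D from -1.58 to -1.07 on the log2 scale, with the highest adjusted p at 0.00110, 0.0287 and 0.00679. For each of the 3 the value nearest 0 came from the log2(FPKM + 1) scale, which understates changes of low genes.

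Of 10 other death ligands, receptors and decoys, 6 had enough counts to be tested. Of these 3 fell and 1 rose, with a median log2 fold change of -0.71. Over all tested genes 18.1% fell and 20.5% rose. Neither this list nor those below were tested against these shares. TNFRSF1B, the second TNF receptor, which has no death domain, fell from 12.8 ± 3.01 to 4.13 ± 0.978 CPM (SD, n = 3; 3.11-fold, edgeR adjusted p = 0.00237). TNFRSF21 (death receptor 6) fell from 179 ± 13.6 to 93.4 ± 19.9 CPM (1.92-fold, edgeR adjusted p = 0.00363). TNFRSF11B, osteoprotegerin, a secreted protein that binds TRAIL as well as RANKL, fell 1.92-fold (edgeR adjusted p = 0.00830). For each of these 3 genes every CMR library lay below every control library. Groups did not overlap in 53.9% of all tested genes.

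TNFRSF1A, the death-domain receptor for TNF, was the one that rose, from 52.6 ± 1.49 to 71.1 ± 10.4 CPM (1.35-fold, log2 fold change 0.44 ± 0.12 SE, edgeR adjusted p = 0.0287). That call was lost in 10 of 14 alternatives. Among them were leaving out CMR replicate 1 (edgeR adjusted p = 0.0702), CMR replicate 3 (0.0756) or control replicates 1 (0.0823), 2 (0.0749) or 3 (0.0940), and upper-quartile scaling (0.0973). TNFRSF25 (death receptor 3) and its ligand TNFSF15 were not called (edgeR adjusted p = 0.217 and 0.622). TNF had 8, 18 and 0 counts with CMR and 0, 4 and 0 in control, and LTA had 4 counts in 1 control library and none elsewhere. TNFRSF6B, a soluble decoy for FASLG, had 68, 36 and 4 counts with CMR and none in control. It did not pass the filter on low counts. In a fit of all genes with any count it was called (edgeR adjusted p = 0.0225), as it was by DESeq2 (adjusted p = 5.6e-05). Both calls rest on the same few counts, mostly from CMR replicates 1 and 2, and without a control count the size of the rise is not determined. TNFRSF6B also shares read-through transcripts with its neighbour RTEL1, and which transcripts gave those counts was not tested.

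Adaptors and kinases of the receptor complexes went both ways. Of 9 tested, 2 rose, 2 fell and 5 were not called, with a median of 0.26. Over all tested genes 20.5% rose and 18.1% fell. DEDD2, a nuclear protein with a death effector domain, rose from 5.80 ± 1.55 to 20.2 ± 9.13 CPM (SD, n = 3; 3.48-fold, edgeR adjusted p = 0.00644). RIPK1, the kinase that decides between survival and death signalling at TNF receptors, rose 1.35-fold (edgeR adjusted p = 0.00873). TRAF2, which brings ubiquitin ligases to the receptor, fell from 26.4 ± 0.338 to 13.1 ± 1.15 CPM (2.01-fold, edgeR adjusted p = 0.000779). DAXX, first known as a FAS-binding protein, fell 1.32-fold (edgeR adjusted p = 0.0370). Leaving out any 1 of 4 libraries ended the DAXX call: CMR replicates 1 (adjusted p = 0.0787) and 2 (0.115) and control replicates 2 (0.117) and 3 (0.125). RIPK3, the necroptosis kinase, named after its values were seen, had no count in any library.

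Of 11 ubiquitin regulators tested, 4 rose and 2 fell, beside 20.5% and 18.1% of all tested genes. Their median was 0.32. CYLD, a deubiquitinase that removes chains from RIPK1, rose from 16.4 ± 3.11 to 42.8 ± 7.77 CPM (SD, n = 3; 2.60-fold, edgeR adjusted p = 0.00158). RBCK1 (HOIL-1), a subunit of the linear ubiquitin ligase, rose 2.33-fold (edgeR adjusted p = 0.000769), while its partners RNF31 and SHARPIN were not called (edgeR adjusted p = 0.920 and 0.852). BIRC3 (cIAP2), a ligase that ubiquitinates RIPK1, fell from 125 ± 7.12 to 56.3 ± 14.2 CPM (2.23-fold, edgeR adjusted p = 0.00228). ITCH, a ligase known to target c-FLIP, rose 1.80-fold (edgeR adjusted p = 0.0130), a call lost without control replicate 1 (0.0508). RNF31 and SHARPIN were chosen for mention after their values were seen.

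In the list of effector caspases and the mitochondrial route, 5 of 12 tested genes rose and 3 fell, with a median of 0.43. Among all tested genes 20.5% rose and 18.1% fell. The 5 rises became 3 without CMR replicate 2, control replicate 2 or control replicate 3, and 6 without CMR replicate 1. The other alternatives gave 4 or 5. CASP9, the initiator caspase of the mitochondrial route, rose from 6.69 ± 2.65 to 16.4 ± 2.29 CPM (SD, n = 3; 2.44-fold, edgeR adjusted p = 0.0139). CYCS, cytochrome c, rose 2.09-fold from 547 ± 16.5 to 1142 ± 239 CPM (edgeR adjusted p = 0.00130). BID, the BCL2-family protein that caspase-8 cleaves to reach the mitochondria, fell from 35.3 ± 4.53 to 17.1 ± 1.58 CPM (2.06-fold, edgeR adjusted p = 0.00136). CASP6, an effector caspase, fell 1.94-fold (edgeR adjusted p = 0.00539). The remaining rises were XIAP (1.93-fold), HTRA2 (1.55-fold) and DIABLO (1.49-fold), and the remaining fall was DFFA (1.37-fold). These were named after their values were seen.

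**Figure D5:**
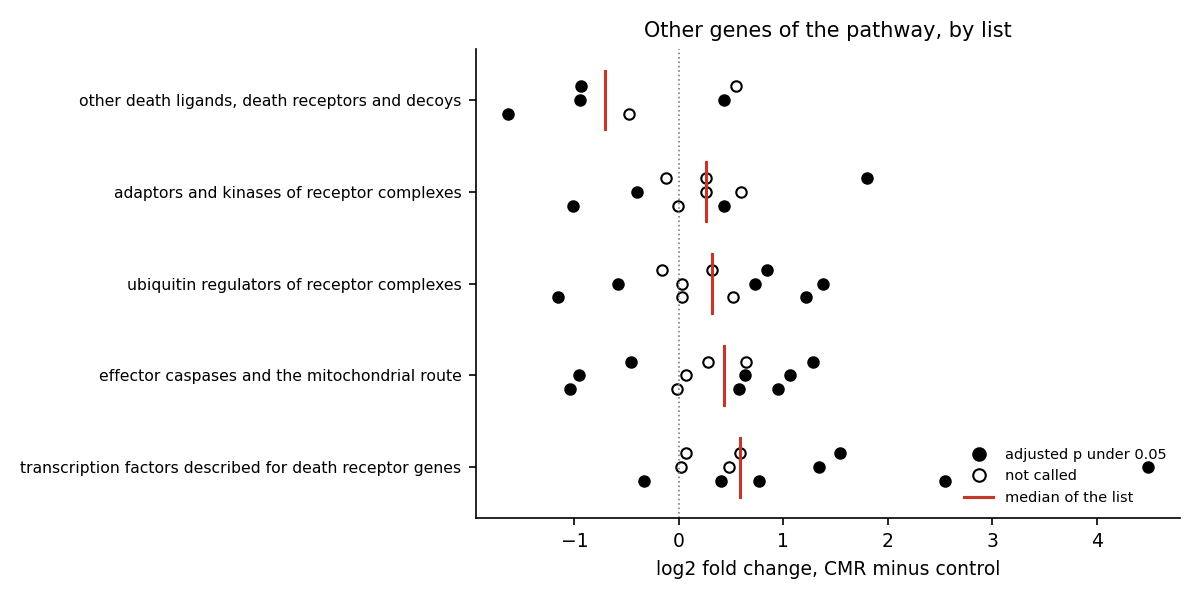
Log2 fold change (CMR minus control, x axis) of each tested gene of 5 lists of pathway and regulatory genes; filled points have an adjusted p under 0.05 and the red line is the list's median. Medians run from -0.71 for other ligands, receptors and decoys to 0.59 for transcription factors, where ATF3 lies at 4.49.

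Among transcription factors described for death receptor genes, 6 of 11 rose and 1 fell, with a median of 0.59. The shares over all tested genes were 20.5% and 18.1%, and the list was not tested against them. ATF3 rose 22.5-fold, DDIT3, which encodes CHOP, 5.86-fold and ATF4 2.54-fold (edgeR adjusted p = 2.7e-05, 2.7e-05 and 8.3e-05). FOXO3, a stress-responsive forkhead factor, rose from 66.4 ± 2.63 to 193 ± 30.2 CPM (SD, n = 3; 2.91-fold, edgeR adjusted p = 0.000205). With upper-quartile scaling 4 factors of this list rose, by DESeq2 8, and without 1 library 4 to 7. The single fall was not called by DESeq2 or without any 1 of CMR replicates 1 and 3 and control replicates 1, 2 and 3. The 4 named here are the called genes of the list with the largest fold. These lists were assembled with earlier results of the same data known.

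The 4 TRAIL receptor genes span 205 kb (GRCh38, chromosome 8, 23020133 to 23225126, as the authors' table places them), with TNFRSF10B (23020133 to 23069031), TNFRSF10D (23135588 to 23164027) and TNFRSF10A (23190452 to 23225126) on the minus strand and TNFRSF10C (23102590 to 23117437) on the plus strand. Neighbours on the chromosome thus moved in opposite directions, TNFRSF10D lying between TNFRSF10A and TNFRSF10C. Of 14 tested protein-coding genes within 500 kb, 1 rose and 5 fell, with a median of -0.27. The shares over all tested genes were 20.5% higher and 18.1% lower, and the counts were not tested against them. The 5 falls became 3 without CMR replicate 2, control replicate 1 or control replicate 3. They also became 3 with the replicate block and in the fits limited to genes averaging 1 FPKM or more. Without CMR replicate 1 there were 6 falls, and the other alternatives gave 4 or 5. The falls included C8orf58 (3.13-fold, edgeR adjusted p = 0.00109), PDLIM2 (2.48-fold, 0.00230) and LOXL2, a collagen-crosslinking enzyme gene (1.67-fold, 0.0107). RHOBTB2, which overlaps TNFRSF10B on the other strand with 5.20% of its mean count, fell 1.73-fold (edgeR adjusted p = 0.0296). That call was lost without any 1 of CMR replicates 1 (0.0724), 2 (0.0615) and 3 (0.0589) or control replicates 1 (0.0883) and 3 (0.102), and with the replicate number as a block (0.0592).

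A long non-coding gene, AC107959 (ENSG00000284948, 23084355 to 23103558, plus strand), overlaps the start of TNFRSF10C, and its mean count over the 6 libraries was 43.3 against 2.67 for TNFRSF10C. It had 70, 81 and 90 counts with CMR and 19, 0 and 0 in control, and was not called (edgeR adjusted p = 0.0745). Without control replicate 1 it was called (edgeR adjusted p = 0.00246). Reads at the overlap may have been counted to either gene, so the near absence of TNFRSF10C counts is uncertain to that extent.

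CFLAR, CASP10 and CASP8 also lie side by side, within 172 kb of chromosome 2 (201116154 to 201287711), all on the plus strand. None of the 3 was called. Of 14 tested protein-coding neighbours within 500 kb, 4 rose and 3 fell, with a median of 0.11. The shares over all tested genes were 20.5% higher and 18.1% lower, and the counts were not tested against them. FAM126B rose 3.16-fold, PPIL3 2.26-fold and TRAK2, a mitochondrial transport adaptor gene, 1.86-fold, and AOX1, aldehyde oxidase, fell 2.38-fold (edgeR adjusted p = 0.00353, 0.00107, 0.000671 and 0.00434). FAS (chromosome 10, 88990531 to 89017059), FADD (chromosome 11, 70203163 to 70207390) and TNFSF10 (chromosome 3, 172505508 to 172523475) lie apart from both clusters. For these 3 genes, and for the members not mentioned with an overlap above, no overlapping gene reached 10% of the member's mean count.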

How the data were processed

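PANC-1 libraries, 3 with CMR and 3 control, were grouped by title; paired ends were sequenced, per the labels' protocols. These describe selection of poly(A) mRNA but then name poly(A)- or poly(A)+ fractions, and an adipose source that the cell line label contradicts, so the RNA fraction is uncertain. The deposited count values are whole numbers per gene. Beside them the authors gave FPKM, which divide by gene length and depth and stand at 0.0001 where a gene has no count. Named in the submitters' processing notes are HISAT2 2.0, StringTie 1.3.0, Bowtie 0.12.2 and the mouse build mm8, with no roles. Identifiers are human, and 81.2% of 58552 genes have the span and strand of GENCODE 29 (GRCh38). Every column of values belonged to a sample.

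Counts were tested with edgeR 4.0.16 (R 4.3.3): TMM scaling, filterByExpr (minimum count 10, total 15), quasi-likelihood test and Benjamini-Hochberg adjustment. The standard error is the fitted change over the root of the F statistic. The code was tested on simulated data. Normalised CPM use the same factors. Members, lists and tests were chosen with earlier results of these data known. Named outside the members were every gene of the first list, up to 4 called genes of each other list and cluster by fold, and overlapping genes with 10% of a member's count; overlaps of other genes were not checked. Some genes and 1 list are not reported here. Alternatives were upper-quartile scaling, library totals alone, DESeq2 1.42.0, all genes with a count, a mean of at least 1 FPKM, limma 3.58.1 on log2(FPKM + 1) and log2(FPKM + 0.1), the replicate number as a block, and leaving out each library. Counts per kb of the longest coding transcript were added after seeing the data. Figures used matplotlib 3.10.9.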

Additional observations from a re-analysis of the deposited data

How the results depend on the processing

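The count of members called stayed at 3 or became 4 in every alternative, and over all genes it ran from 5660 to 7711 without 1 library and from 6333 to 7971 otherwise, against 7404. Under upper-quartile scaling the median log2 fold change shifted by -0.13, and 3250 genes were higher and 4324 lower (42.9% of calls higher, against 53.1%). Of the 114 values of the 9 members under alternatives, 110 kept their direction and side of the threshold; 2 of FAS and 1 of CASP8 passed it, and CASP8 turned to -0.016 with upper-quartile scaling. The 32 tested genes named outside the members by the rule kept both in 402 of 433 values, while 22 calls were lost and 1 was gained. Apart from the first list and the overlapping genes, they were named because they were called with large folds in the reported fit. Their agreement in refits of the same libraries was thus partly set in advance. The uncalled AC100861 (log2 fold change 0.03) turned to -0.10 with upper-quartile scaling, -0.045 with library totals alone, -0.015 with the 1 FPKM filter, and -0.023 and -0.031 with limma on log2(FPKM + 1) and log2(FPKM + 0.1); without 1 library it ran from -0.10 to 0.25. The causes of these changes were not tested.

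Whether libraries with the same replicate number were paired is not stated in the labels. Their deviations from the group means correlated at 0.034, 0.044 and 0.052, and those of libraries with different numbers at -0.0305 to -0.0099. Each library thus correlated best with its own number, but weakly, and whether a shared number marks a batch was not tested. With the replicate block 6737 genes were called, 3582 higher and 3155 lower, and 3 members. Genes with a mean under 1 FPKM (TNFSF10, FAS, CASP10, CFLAR) gave no value in fits with that filter. Depth limits TNFSF10, CASP10 and TNFRSF10C, whose libraries held at most 49, 19 and 12 counts.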
